A study of Mus musculus with 17 samples.

Results

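In the mouse kidney, 2247 genomic regions carried a WT1 peak in purified podocytes both without injury and 9 days after adriamycin, yet held no peak in either list from whole glomeruli. They were chosen by measured values: all peaks of the 5 deposited lists were joined into regions where they overlapped or touched, which gave 41766 regions. A region became a member if it had a peak in PBS podocytes and in day 9 podocytes and none in PBS or ADR glomeruli. A peak at day 14 was not asked for. Members made up 5.38% of all regions and 11.2% of the 20043 regions with peaks in both PBS and day 9 podocytes, a share that the rule itself fixes and that is read only as a description.

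WT1 is a zinc-finger transcription factor that binds GC-rich DNA and is needed to form podocytes and to keep them in their mature state. Podocytes are the epithelial cells whose interlocking foot processes wrap the glomerular capillaries and hold the filtration slits. In the adult glomerulus WT1 is found mainly in podocytes, which share the glomerulus with endothelial, mesangial and parietal epithelial cells. Chromatin of whole glomeruli therefore mixes podocyte DNA with that of cells with little or no WT1. Adriamycin (doxorubicin, ADR) is a drug toxic to podocytes and is used in mice as a model of podocyte injury.

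WT1 was profiled by chromatin immunoprecipitation and sequencing (ChIP-seq) in wildtype mice aged 7 to 8 weeks. Podocytes came from mTmG-Nphs2cre mice, a reporter strain in which a recombinase under the podocin gene promoter marks them, with 3 libraries after PBS, 2 at day 9 and 2 at day 14 after ADR. Isolated glomeruli came from BALB/cJ mice, with 4 PBS and 4 ADR libraries, and per the labels' protocol an immunoprecipitation used the glomeruli of 2 kidneys. The labels give no day for the ADR glomeruli or for PBS podocytes. The input libraries among the samples, 1 PBS and 1 ADR, are both from glomeruli. Strain, tissue preparation and the purification of cells all differ between the podocyte and the glomerular groups, and their parts in the absence of a glomerular peak cannot be told apart.

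Each group is represented by 1 peak list for all of its libraries, so no difference between groups has a replicate check and no test was run. The lists held 23402 peaks in PBS podocytes, 31949 at day 9, 6694 at day 14, 29082 in PBS glomeruli and 16634 in ADR glomeruli. Read depth was not used here. Intervals beside shares are 95% Wilson intervals and cover the counting error of regions only, since regions of 1 list are not replicates. A site too weak to be listed in glomeruli cannot be told apart from an unbound one, and the weakest listed glomerular peaks had 2.35-fold enrichment in PBS and 2.86-fold in ADR.

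Most podocyte regions were shared with glomeruli in one way or another. Of the 20043 regions with both podocyte peaks, 10402 (51.9%) had both glomerular peaks, 6983 (34.8%) had the PBS glomerular peak only and 411 (2.05%) the ADR glomerular peak only. The members were the other 2247. In all, 10731 regions had no glomerular peak, and of these 6738 (62.8%) were found at day 9 alone and 1631 (15.2%) in PBS podocytes alone. The members thus made up a minority of the regions lacking a glomerular peak, namely the ones recurring in 2 podocyte lists.

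The edge of the rule was a matter of a few bases. The members nearest to a glomerular peak were chr8:87500667-87501144, 6 bp from an ADR glomerular peak, and chr17:83596233-83596567, 14 bp from a PBS glomerular peak (coordinates are 1-based, mm9). Next were chr11:19940898-19941339 at 15 bp, chr17:32421146-32421880 at 18 bp and chr16:43235899-43236465 at 19 bp. These 5 had 3.22 to 5.50-fold enrichment in PBS podocytes. Without joining by touch alone, members would number 2248. Just outside the rule, among regions with an overlap of at least 1 bp, was chr5:130292725-130293327, where podocyte and glomerular peaks overlapped by 13 bp. It was followed by chr8:42126470-42127274 with 15 bp and chr10:85794208-85795212 with 31 bp. Then came chr5:136433259-136433872 with 41 bp and chr9:56266349-56266889 with 45 bp. Of the members with a glomerular peak on their chromosome, 67 (2.99%) lay within 200 bp of one and 345 (15.4%) within 1000 bp. Such nearness was not particular to the members. Another region with a glomerular peak lay within 1000 bp of 16.6% of members and 20.5% of regions with both glomerular peaks. With the PBS glomerular peak only it was 17.2%, and with the ADR glomerular peak only 19.7%.

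Members stood mostly below the middle of the podocyte lists. Their median percentile was 37.9 in the PBS list (upper quartile 53.3) and 39.3 in the day 9 list (upper quartile 59.4). Fold enrichment, the authors' ratio of a peak over the background, had a median of 5.43 in PBS podocytes (quartiles 4.41 and 6.68, highest 42.5) and of 5.90 at day 9 (4.58 and 8.06, highest 74.5). Regions with both glomerular peaks had medians of 7.90 and 10.1, and those with the PBS glomerular peak only 6.91 and 9.18. The 411 regions with the ADR glomerular peak only resembled the members in level, with medians of 5.30 and 6.02. Presence in the podocyte lists was part of the rule, so these levels are a description.

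The share of members fell with podocyte signal, although not from the weakest sites onward. When the 20043 regions were divided into deciles of PBS fold enrichment, members were 14.7% of the weakest decile, 20.7% of the third (4.60 to 5.27-fold) and 0.798% of the strongest (18.5-fold or more). By day 9 enrichment the share was 19.5% in the weakest decile, 20.5% in the next and 1.15% in the strongest. None of the 100 strongest PBS or day 9 peaks belonged to a member, which allows up to 3.70% by the interval. Among the 1000 strongest, 11 in PBS podocytes and 10 at day 9 did. Over the whole lists, members held 2255 of 23402 PBS peaks and 2265 of 31949 day 9 peaks.

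**Figure D1:**
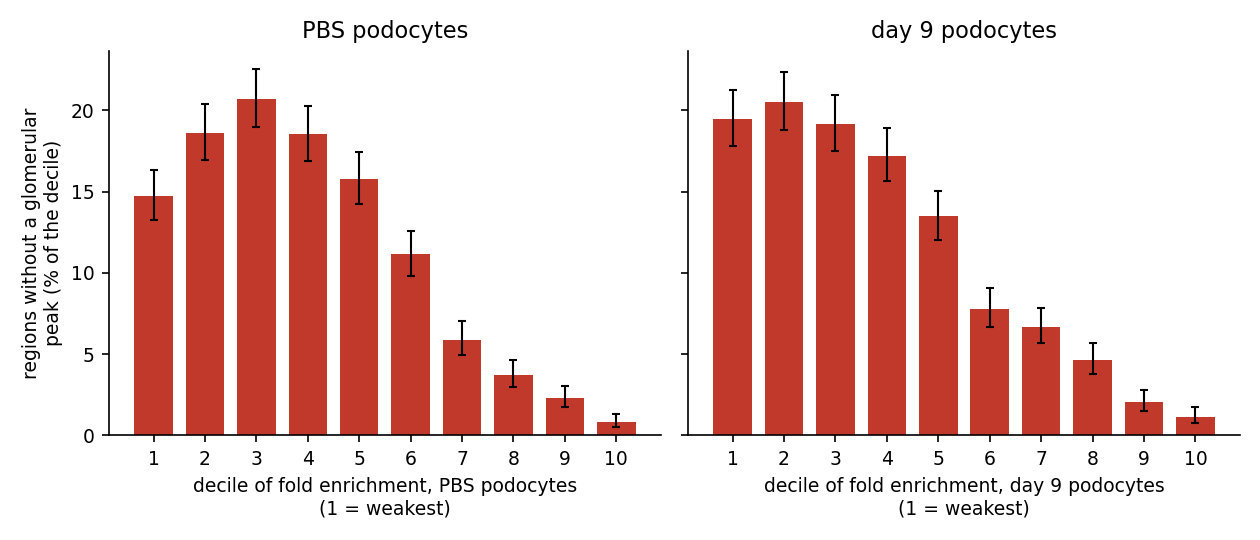
Share of regions without a glomerular peak (bars, percent) in each decile of fold enrichment in PBS podocytes (left) and day 9 podocytes (right), over 20043 regions with both podocyte peaks, with 95% Wilson intervals. The share is 20.7% in the third PBS decile and 0.798% in the strongest.

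A few members were nonetheless strongly enriched in the podocyte lists. The 10 strongest members of each of the 3 lists came to 15 different regions, 5 of them among the 10 strongest in every list. The choice fixed a day 14 peak for 10 of the 15, and the other 5 had one as well. Not all were strong in every list: chr7:85870008-85870658 ranked 6610 of 23402 in PBS podocytes, and chr7:74105009-74105940 ranked 2887 of 6694 at day 14. They lay between 1608 and 221210 bp from the nearest glomerular peak (median 49617 bp). Their PBS and day 9 summits were 0 to 59 bp apart.

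The region chr18:12154265-12155099 was the strongest member in PBS podocytes, with 42.5-fold enrichment, 58.3-fold at day 9 and 17.2-fold at day 14. It ranked 238th of the PBS list, and the nearest glomerular peak was 5041 bp away. The region chr4:3630470-3631297 was the strongest member after injury, with 36.4-fold in PBS, 74.5-fold at day 9 and 23.1-fold at day 14. Its ranks were 395 of 23402, 119 of 31949 and 130 of 6694, and it lay 24162 bp from a glomerular peak. The remaining regions near the head of all 3 lists were of like strength. Enrichment at chr1:67090386-67091121 was 38.2-fold in PBS, 52.3-fold at day 9 and 16.5-fold at day 14, with a glomerular peak 1608 bp away. At chr2:129658535-129659362 the values were 35.9, 49.0 and 15.0-fold. At chr3:62932222-62932984 they were 34.5, 64.0 and 16.0-fold, with the next glomerular peak 50153 bp away. The 5 regions stood in the same 5 leading places among members at day 14 and within the first 6 at day 9.

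Others were among the 10 strongest by PBS enrichment only, or by PBS and day 14 enrichment. The region chr9:29266426-29267079, the most remote of the 15 from any glomerular peak (221210 bp), had 28.3-fold enrichment in PBS, 23.2-fold at day 9 and 8.06-fold at day 14. Among the 20043 regions it stood at percentile 96.1 by PBS and 86.6 by day 9 enrichment. The region chr7:30690757-30691951 had 30.0, 25.1 and 11.1-fold, at percentiles of 96.7 and 88.1. The region chr4:75781479-75782158 had 27.4, 28.2 and 9.47-fold, at percentiles of 95.9 and 90.6. Enrichment values of different lists are not on a common scale. Regions picked as the strongest of 1 list tend to stand lower in another, so these percentiles show no change.

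Among the members chosen for day 9 enrichment, 5 were not among the 10 strongest in PBS podocytes. The widest gap was at chr7:85870008-85870658, with 9.27-fold in PBS, 46.4-fold at day 9 and 4.31-fold at day 14 (rank 5644 of 6694). Among the 20043 regions with both podocyte peaks it stood at percentile 67.1 by PBS and 96.9 by day 9 enrichment. At chr9:102348105-102348893 the enrichment was 16.6-fold in PBS, 51.3-fold at day 9 and 14.4-fold at day 14, and the percentiles were 87.6 and 97.7. At chr16:5997118-5998028 it was 17.3, 39.9 and 13.7-fold, at percentiles of 88.6 and 95.4. At chr16:56666997-56667727 the PBS and day 9 summits coincided to the base, with 20.3, 39.6 and 13.7-fold, at percentiles of 91.8 and 95.3. At chr13:47220712-47221460 the values were 20.3, 41.1 and 10.4-fold, at percentiles of 91.9 and 95.7. These 4 were thus already high among podocyte regions in PBS.

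**Figure D2:**
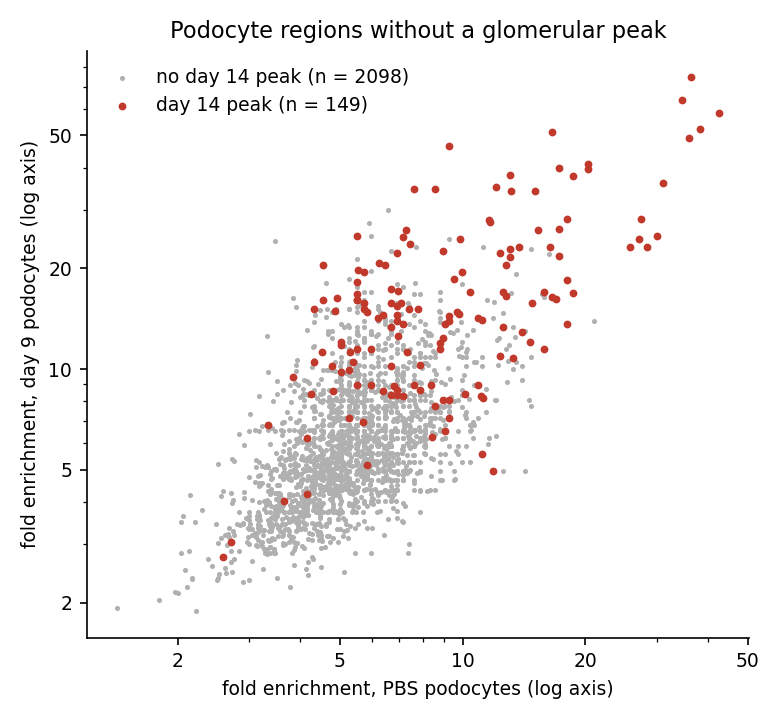
Fold enrichment of each of the 2247 podocyte regions without a glomerular peak in PBS podocytes (x) and at day 9 (y), both on log axes; red points have a day 14 peak (149) and grey points have none (2098). Red points gather at the upper right, where day 9 enrichment is high.

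Over all members, places by PBS and day 9 enrichment were only loosely tied. Spearman's rho across the 2247 regions was 0.568, against 0.866 across the regions with both glomerular peaks and 0.737 across those with the PBS glomerular peak only. It was 0.559 across the 411 regions with the ADR glomerular peak only, so the loose tie was not particular to the members. Regions share their libraries and the members span a narrow range of signal, so these are descriptions across regions and carry no p. In percentiles among the 20043 regions, the day 9 place less the PBS place had a median of -2.35 in members (quartiles -14.4 and 9.02) and of -0.67 in regions with both glomerular peaks. The day 9 place was the higher one in 972 members (43.3%). In the other classes this held for 46.0% (both glomerular peaks), 48.9% (PBS glomerular peak only) and 46.0% (ADR glomerular peak only). In every class more regions thus stood lower at day 9 than higher, so the lean was not particular to the members. Its median in members is small beside the range of single regions, and with 1 list per group it has no replicate check.

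The later time point did not enter the rule. A day 14 peak was present in 149 members (6.63%, 5.67 to 7.74), against 31.4% of all 20043 regions with PBS and day 9 podocyte peaks. The share was 44.9% (43.9 to 45.8) with both glomerular peaks, 20.6% (19.6 to 21.5) with the PBS glomerular peak only and 12.4% (9.57 to 15.9) with the ADR glomerular peak only. Members thus had the lowest share of the 4 classes. The intervals cover counting error only and are no test between classes. The day 14 list was also the shortest of the 5.

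Day 14 peaks followed signal among the members too. Among the 562 members with the highest day 9 enrichment (8.06-fold or more), 133 (23.7%, 20.3 to 27.4) had a day 14 peak, against 9 of the 561 next in strength. Members with a day 14 peak had a median day 9 enrichment of 14.9-fold (10.2 to 22.3) and those without one 5.69-fold (4.45 to 7.53). In PBS podocytes the medians were 8.56 and 5.26-fold. Within the day 14 list itself these 149 regions had a median of 5.72-fold, below the 6.27-fold of all day 14 peaks. The strongest members with no day 14 peak, singled out after their values were seen, were chr3:85150410-85151187 by PBS enrichment (21.0-fold, and 13.9-fold at day 9) and chr3:126371481-126372223 by day 9 enrichment (30.0-fold, and 6.56-fold in PBS).

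**Figure D3:**
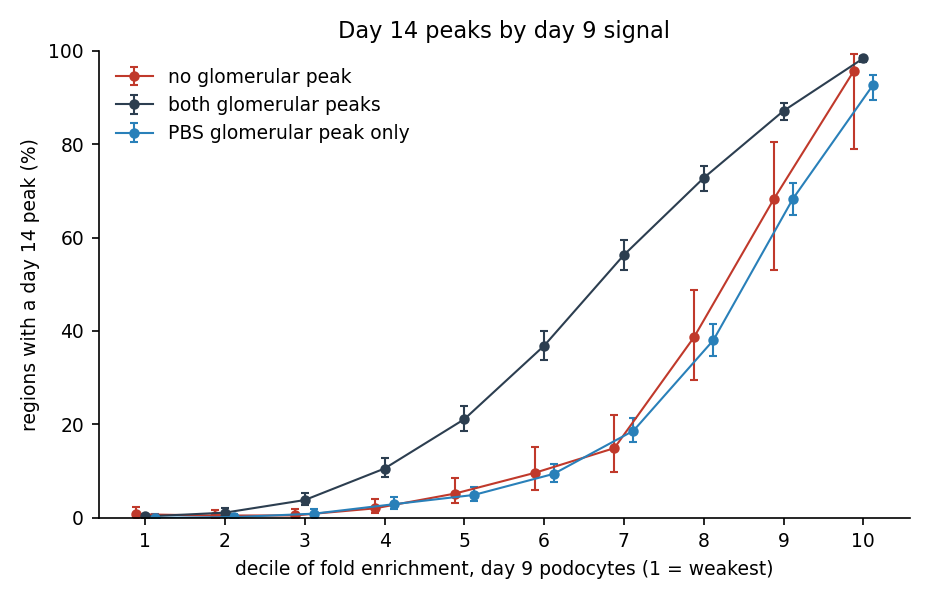
Percent of regions with a day 14 peak (points, 95% Wilson intervals) by decile of day 9 fold enrichment, for podocyte regions with no glomerular peak (red), both glomerular peaks (dark) and the PBS glomerular peak only (blue). In decile 7 the shares are 14.9%, 56.3% and 18.7%.

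Setting members beside regions of like strength narrowed the gap in day 14 peaks, by an amount that hung on how strength was measured. Within deciles of PBS enrichment, regions with any glomerular peak would give 13.1% where members had 6.63%, a difference of -6.47 percentage points. Within deciles of day 9 enrichment the difference was -5.38 points. It was -9.95 points against the regions with both glomerular peaks alone and -0.124 against those with the PBS glomerular peak only. Against the latter it was -1.41 points by PBS enrichment, -3.34 by PBS −log10 p, -0.681 by day 9 −log10 p, -8.04 by implied PBS pileup and -4.03 by implied day 9 pileup. The curves by day 9 decile show this: in decile 7, 14.9% of members (9.87 to 21.9), 18.7% of regions with the PBS glomerular peak only and 56.3% of those with both had a day 14 peak. With the caller's −log10 p as the measure, the difference from all regions with a glomerular peak was -4.33 points in deciles of PBS podocytes and -0.73 points in deciles of day 9. At equal day 9 −log10 p the members' share of day 14 peaks was close to that of the regions that glomeruli share, at 6.63% and 7.36%. That measure was added after the data were seen. By implied PBS pileup, also added later, the shares were 6.63% and 16.7%, so the size of the gap depends on the measure.

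Peaks of members were narrow and stood on a low local background. The median peak width was 381 bp in PBS podocytes and 399 bp at day 9, against 587 and 613 bp with both glomerular peaks and 447 and 485 bp with the PBS glomerular peak only. With the ADR glomerular peak only they were 416 and 440 bp. The background under each peak was read back from the caller's fold and p, a form that is inferred from the values. In PBS podocytes its median was 2.80 reads (on the caller's own scale) in members, 2.78 in regions with the PBS glomerular peak only and 6.99 in regions with both glomerular peaks. The most frequent value of that list was 2.12 reads, and 32.4% of members, 30.4% of the regions with the PBS glomerular peak only and 69.2% of those with both exceeded 2 times this value. Regions with the ADR glomerular peak only lay between, with a median of 3.95 reads and 46.5%. In local background the members were thus close to regions seen in PBS but not ADR glomeruli, and unlike those seen in both. The implied pileup at the PBS podocyte summit had a median of 22.0 reads in members and 63.4 in regions with both glomerular peaks. It was 30.8 with the PBS glomerular peak only and 26.5 with the ADR glomerular peak only, both much nearer to the members. Over all peaks of a list, the implied background had a median of 1.63 reads in PBS glomeruli and 0.81 in ADR glomeruli. In the podocyte lists it was 4.41 reads in PBS, 3.23 at day 9 and 3.04 at day 14. Whether these values share a scale across lists, and their part in the absence of a glomerular peak, was not tested.

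The distance between the PBS and day 9 summits of a member had a median of 40 bp (quartiles 17 and 83.5), and 1278 members (56.9%, 54.8 to 58.9) had them within 50 bp. With both glomerular peaks the median was 24 bp and 75.4% were within 50 bp, with the PBS glomerular peak only 29 bp and 69.7%, and with the ADR glomerular peak only 41 bp and 58.2%. The distance followed signal: in the weakest day 9 decile the medians were 46 bp in members and 42 bp with both glomerular peaks. In the strongest, with 23 members, they were 15 bp in each. In decile 5 a gap remained, with 37.5 bp in members and 30 bp with both glomerular peaks. There it was 31 bp with the PBS glomerular peak only and 32.5 bp with the ADR glomerular peak only. A single peak per list was the rule, with 25 of 2247 members holding more than 1 peak in PBS or day 9 podocytes. So did 500 of 10402 regions with both glomerular peaks, 124 of 6983 with the PBS and 11 of 411 with the ADR glomerular peak only.

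Along the genome, the gap from a member to the nearest glomerular peak had a median of 10041 bp (interval 8975 to 10739) and quartiles of 2115 and 35297 bp. The median distance to the nearest other region with a glomerular peak was 10002 bp for members, 6093 bp for regions with both glomerular peaks and 6371 bp for those with the PBS glomerular peak only. More than 100 kb separated 206 members (9.19%) from such a region, against 4.30% and 5.14% in these classes. Regions with the ADR glomerular peak only were more like the members in this distance, with a median of 8388 bp and 7.79% beyond 100 kb. Members also lay farther from other regions of any class than 2 of the 3 other classes did. That median was 4998 bp in members, 4056.5 bp with both glomerular peaks, 4295 bp with the PBS and 5190 bp with the ADR glomerular peak only. Beyond 100 kb were 4.32% of members, against 2.33%, 3.18% and 3.41%.

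**Figure D4:**
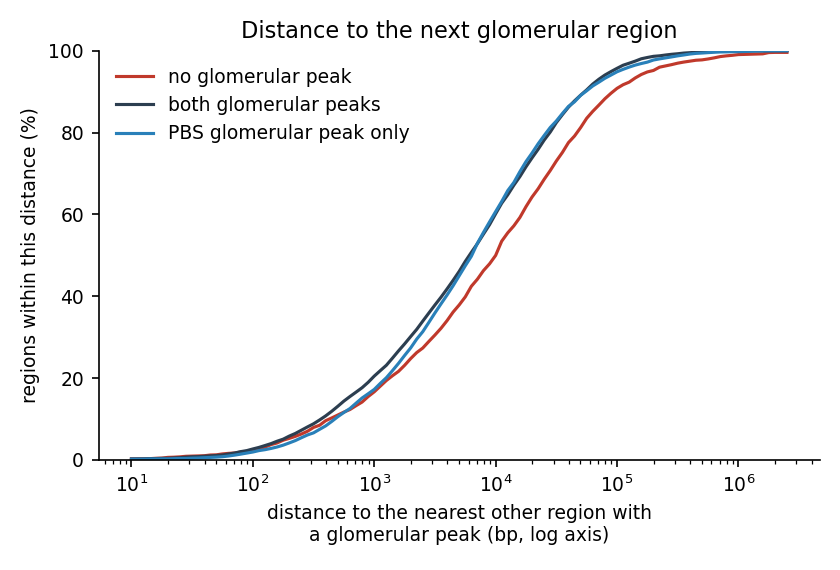
Percent of regions (y) whose nearest other region with a glomerular peak lies within the distance on the x axis (bp, log axis), for podocyte regions with no glomerular peak (red), both glomerular peaks (dark) and the PBS glomerular peak only (blue). The red curve lies to the right, with a median of 10002 bp against 6093 and 6371 bp.

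Members neighboured one another in a minority of cases, at a share above their share of all regions. The nearest other region was a member for 227 of the 2247 (10.1%, 8.92 to 11.4), while members were 5.38% of all regions. Without chromosomes Y and M the shares were 9.28% and 5.32%. Most members stood singly: 1857 (82.6%) had no other member directly next to them, 286 were in pairs and 63 in runs of 3. Windows of 100 kb with any member numbered 1898, of which 1625 held 1.

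The longest autosomal runs of members with no other region between them lay on chromosomes 4, 11 and 7. On chromosome 11, 6 members stood between 103798528 and 103822870, a span of 24343 bp. They included one of the strongest of all, chr11:103798528-103799334, with 31.0-fold enrichment in PBS, 36.0-fold at day 9 and 12.7-fold at day 14. Its neighbour chr11:103802198-103802952 had 9.50, 18.6 and 4.55-fold, and the other 4 had 5.05 to 7.86-fold in PBS and no day 14 peak. On chromosome 4, 6 members stood between 148773513 and 148815147, with 3.05 to 7.88-fold in PBS and 2.67 to 13.0-fold at day 9. One of these, chr4:148789651-148790563, had a day 14 peak (3.22-fold). On chromosome 7, 5 members stood between 74100282 and 74184608, and glomerular peaks were missing for 156137 bp before the run and 333101 bp after it. Its strongest member, chr7:74105009-74105940, had 27.0, 24.4 and 6.85-fold enrichment and an implied PBS background of 6.99 reads. The window chr13:47200001-47300000 also held 5 members, among 12 regions in all, and is the one around chr13:47220712-47221460.

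Across autosomes the share of members varied within a narrow range. It ran from 8.38% (7.08 to 9.89) of podocyte regions on chromosome 11 to 13.3% (11.4 to 15.5) on chromosome 3, around 11.1% over all 19. These 2 chromosomes were picked as the lowest and highest of 19, so their intervals are no test of a difference. The share tended to be lower where coding genes are dense, with a Spearman's rho of -0.542 over the 19 autosomes between the share and coding genes per Mb (GRCm38). Chromosomes share libraries and peak calling, so this is a description. On the X chromosome 49 of 419 regions (11.7%, 8.96 to 15.1) were members.

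Chromosome Y and the mitochondrial genome (M) stood apart. Members were 20 of the 21 podocyte regions on chromosome Y (95.2%, 77.3 to 99.2) and all 6 on M. The lists held 22 Y peaks in PBS podocytes, 25 at day 9, 0 at day 14, 1 in PBS glomeruli and 0 in ADR glomeruli. The labels give no sex, and its part in these counts was not tested. The Y members had a median of 2.93-fold enrichment in PBS podocytes (1.80 to 10.2) on an implied background with a median of 16.0 reads (1.93 to 71.8). Their largest run, 6 members between 2860368 and 2902269, had 2.09 to 3.02-fold in PBS, and 7 members lay in each of the windows chrY:1700001-1800000 and chrY:2800001-2900000. The M members had 1.42 to 3.66-fold in PBS podocytes on an implied background of 95.5 to 162.8 reads, and 3 of them had a day 14 peak. Without these 26 regions the share of members with a day 14 peak was 6.57%.

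**Figure D5:**
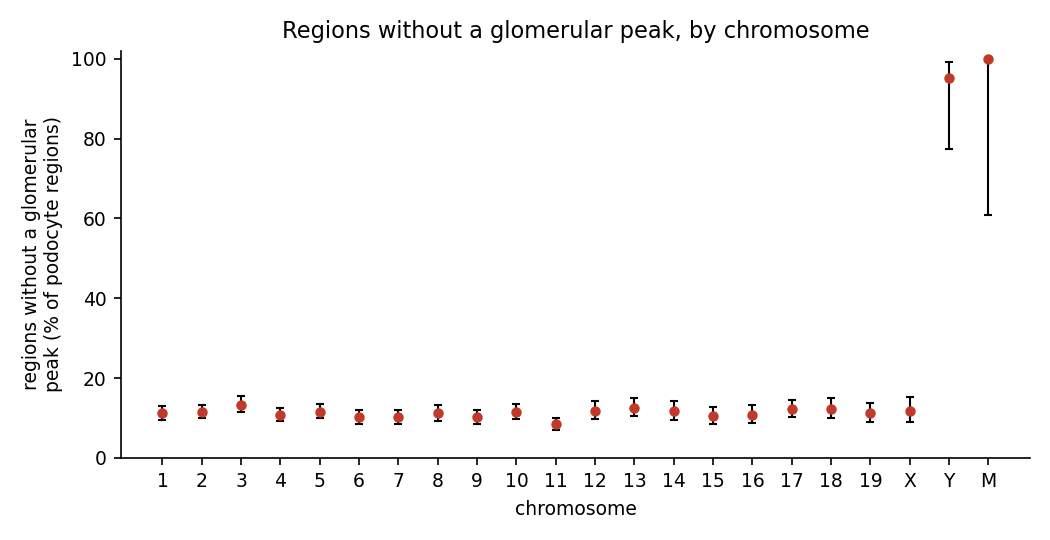
Share of podocyte regions that had no glomerular peak (points, percent, 95% Wilson intervals) on each chromosome. The autosomes lie between 8.38% and 13.3% and X at 11.7%, while Y stands at 95.2% of 21 regions and M at all of 6.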

How the data were processed

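Per the submitters' processing notes, Bowtie (version 0.12.7) and MACS2 were used with the mouse build mm9. The pooling of libraries, the controls and the calling threshold are not stated in the labels. For each group there is 1 narrowPeak list as deposited. Fold enrichment is the authors' ratio, and the −log10 p and −log10 q are deposited values of the caller. The deposited integer score entered no result.

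Peaks that overlapped or touched were joined into regions, and the strongest peak of each list stood for a region. Fold was compared within a list or by percentile among the same regions. Implied pileup and background came from fold taken as (pileup + 1)/(background + 1) and p as a Poisson tail. Day 14 shares at like signal used 10 bins over all regions with PBS and day 9 podocyte peaks, weighted by the members. Merging, classes and bins were checked on simulated lists.

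Members, lists of values and alternatives were chosen with earlier results of these data known. Named regions were the 10 strongest members per podocyte list, the 5 on either side of the rule, and the windows of 100 kb and runs with most members (all ties kept). The 5 outside the rule were sought among regions with an overlap of at least 1 bp. Coding genes per chromosome came from a RefSeq table of GRCm38. No genome or annotation of mm9 was used here, so genes, transcription start distances, motifs and sequences are not given. Alternatives changed joining, −log10 q, distances and bins. The scripts ran under Python 3.11.15, with pandas 2.3.3 and numpy 2.4.6 for the tables, scipy 1.17.1 for intervals and Poisson tails, and matplotlib 3.10.9 for plots.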

Additional observations from a re-analysis of the deposited data

How the results depend on the processing

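Of 25 alternatives, 18 left the value within 1.5 times (count of members) or inside its interval (other results). Only the difference in day 14 share at equal signal has a sign that could turn. It stayed negative under every alternative tried on it. The count of 2247 members fell to 721 with a −log10 q of at least 10 in the podocyte lists alone and was 2719 with that limit in all 5 lists, where weak glomerular peaks are removed too. It was 1902 when any glomerular peak within 1000 bp also barred a region. The share of members with a day 14 peak was 6.25% to 7.20% under every alternative tried on it. With both glomerular peaks it was 52.1% with the stricter q in all lists and 39.5% with it in the podocyte lists. The difference in day 14 share at equal signal was -4.33 points in bins of PBS −log10 p and, with measures added after the data were seen, -10.04 points in bins of implied PBS pileup and -0.73 in bins of day 9 −log10 p; the cause was not tested. The nearest neighbour was a member for 17.0% when it was sought among regions with PBS and day 9 podocyte peaks, where members are 11.2%. No paired analysis was possible because replicate values are missing from the lists used, and leaving out single libraries could not be done either. Motif and transcription start shares, with their alternatives, were not run for want of mm9 sequence and annotation. Glomerular peaks below the authors' cutoff and read depth were not analysed here, which limits what the absence of a peak shows.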
